A study of Mus musculus with 14 samples.

Results

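9 genes that run or restrain the breakdown of stored triglyceride were followed by symbol through 14 bone marrow samples, 9 of the 55401 genes counted. They are the lipases Pnpla2, Lipe and Mgll, the lipase coactivator Abhd5, the lipase inhibitors G0s2 and Hilpda, and the genes of hormonal control Adrb3, Pde3b and Adora1. All 9 were found once in the files, and all 9 passed the filter on low counts that left 17671 genes to test. RNA came from marrow plugs flushed from the distal tibia of male mice on a mixed C57BL6/SJL background, 24 weeks of age, with the marrow of a pair of mice pooled per sample.

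The samples formed 4 groups. BMAd-Pnpla2+/+ mice were fed ad libitum (AL, 4 samples) or calorie restricted (CR, 4 samples), and BMAd-Pnpla2-/- mice were fed AL (3 samples) or CR (3 samples); CR was a 30% restriction for 6 weeks. Mice of both genotypes carried an FLPo recombinase at the Osterix locus and a Cre at the Adipoq locus that FLPo switches on, and BMAd-Pnpla2-/- mice carried floxed Pnpla2 alleles as well. Cre is therefore made in cells that express Adipoq and in which, or in whose progenitors, Osterix has been active. These are bone marrow adipocytes (BMAd) and, by the study's own account, a few stromal cells as well. Cre is translated from an internal ribosome entry site after the Adipoq coding sequence, which keeps its level low. A plug of marrow also holds blood-forming, stromal, endothelial and bone cells. Each sample is a separate pool, and the p-values below measure the spread between these pools.

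Adipocytes release stored fat in steps. Adipose triglyceride lipase (ATGL, the product of Pnpla2) removes the first fatty acid from triglyceride, hormone-sensitive lipase (Lipe) acts on the resulting diglyceride, and monoglyceride lipase (Mgll) frees the last fatty acid from glycerol. ATGL is switched on by its coactivator CGI-58 (Abhd5) and held back by G0s2 and Hilpda. Catecholamines acting on the beta 3 receptor (Adrb3) raise cyclic AMP and drive the cascade through protein kinase A, whereas insulin, through the phosphodiesterase encoded by Pde3b, and adenosine, through its A1 receptor (Adora1), lower cyclic AMP and slow it.

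The start sites of the genes the results turn on are shown first, as RefSeq gives them for the build GRCm38.p6, each 5′ to 3′ on the strand of its gene over 300 bases that span the start. Capitals mark matches, on either strand, to a forkhead site (GTAAACA) or a GC box (GGGCGG). Pnpla2 and Lipe are shown because they moved most among the lipases with CR, Mgll because it shares the forkhead match with Lipe, and G0s2 because it encodes the ATGL inhibitor whose samples did not overlap between the genotypes.
Pnpla2, chr7:141454938-141455237, plus strand: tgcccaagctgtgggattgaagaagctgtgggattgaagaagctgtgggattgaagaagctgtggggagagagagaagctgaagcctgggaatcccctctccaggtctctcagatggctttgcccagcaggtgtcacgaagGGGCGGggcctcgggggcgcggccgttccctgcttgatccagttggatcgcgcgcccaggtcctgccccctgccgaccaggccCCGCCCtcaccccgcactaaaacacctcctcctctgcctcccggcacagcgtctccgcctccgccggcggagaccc
Lipe, downstream start, chr7:25390063-25390362, minus strand: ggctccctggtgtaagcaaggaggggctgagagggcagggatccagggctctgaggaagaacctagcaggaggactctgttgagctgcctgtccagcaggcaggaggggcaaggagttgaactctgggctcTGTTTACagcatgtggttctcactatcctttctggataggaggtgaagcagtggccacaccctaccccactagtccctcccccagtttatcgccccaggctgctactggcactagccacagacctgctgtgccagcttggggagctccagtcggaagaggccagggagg
Mgll, upstream start, chr6:88724162-88724461, plus strand: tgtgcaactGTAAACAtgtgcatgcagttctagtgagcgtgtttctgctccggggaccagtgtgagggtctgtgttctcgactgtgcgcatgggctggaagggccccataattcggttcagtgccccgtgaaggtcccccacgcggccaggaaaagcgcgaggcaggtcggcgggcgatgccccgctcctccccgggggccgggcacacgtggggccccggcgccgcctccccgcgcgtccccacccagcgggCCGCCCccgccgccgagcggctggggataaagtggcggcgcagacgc
G0s2, chr1:193273139-193273438, minus strand: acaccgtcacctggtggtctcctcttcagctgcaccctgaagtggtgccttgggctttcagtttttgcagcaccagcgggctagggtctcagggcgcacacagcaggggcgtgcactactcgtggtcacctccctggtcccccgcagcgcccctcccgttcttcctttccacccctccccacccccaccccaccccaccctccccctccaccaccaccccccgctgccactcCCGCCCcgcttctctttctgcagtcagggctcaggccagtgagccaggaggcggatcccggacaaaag
RefSeq listed 11 such windows for 7 of the 9 genes, all but Adrb3 and Pde3b. The forkhead letters were present in 2 of the 11 windows, the downstream start of Lipe and the upstream start of Mgll, and in 3.65% of the 32851 windows of all genes. A GC box was present in 9 of the 11 and in 35.7% of all windows. None of the 11 held the direct repeat bound by PPAR and RXR (AGGNCA in 2 copies, 1 base apart), the glucocorticoid response element (GNACA and TGTNC, 3 bases apart), a C/EBP site (TTGCNNAA) or the cyclic AMP response element (TGACGTCA), which were found in 0.38%, 0.475%, 10.8% and 1.79% of all windows. No match overlapped one of another motif. These are descriptions of the letters in short windows and say nothing of which factors bind there.

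On GRCm38, Pnpla2 spans chr7:141455198-141460743 on the plus strand and Lipe chr7:25379527-25398710 on the minus strand. Mgll spans chr6:88724412-88828360, Abhd5 chr9:122351608-122381524, Hilpda chr6:29272488-29275446 and Pde3b chr7:114415281-114539251, all on the plus strand. G0s2 lies at chr1:193272161-193273217, Adrb3 at chr8:27225776-27250616 and Adora1 at chr1:134199223-134235431, all on the minus strand. The exons of Lipe, Mgll, Abhd5, Adrb3 and Adora1 share 918, 167, 950, 839 and 1162 bases with genes on the opposite strand, which were themselves counted at low levels. A read in such a stretch is assigned to neither gene when strand is ignored.

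Depth was even, with 18898324 to 21665553 gene reads per sample counted without regard to strand. The libraries were not all of one kind: of the gene reads given a strand, 4.30% to 4.62% lay on the first strand in 11 samples and 50.1% to 50.5% in the 3 BMAd-Pnpla2-/- CR samples, so that these 3 libraries carried no strand information. That difference coincides with 1 group and cannot be told apart from it in any comparison the group enters. Counts without strand were therefore used throughout. In the 11 stranded libraries the reverse-strand count of Lipe was 145% to 161% of its unstranded count, which leaves out reads in the shared bases, while that of Pnpla2 was 99.0% to 99.5%. The markers of adipocytes (Adipoq, Cidec, Plin1, Plin4, Fabp4, Lep, Retn and Cfd) summed to 280 to 4765 CPM (gene reads scaled to a common library size) per sample. Those of neutrophils summed to 11351 to 32308 CPM, the higher sum in every sample.

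Pnpla2 was the target of the deletion and is given first in every sample. In BMAd-Pnpla2+/+ AL marrow its level was 301, 174, 199 and 189 CPM, and under CR it was 805, 991, 1015 and 502 CPM. In BMAd-Pnpla2-/- AL marrow it was 135, 170 and 131 CPM, and under CR 177, 219 and 267 CPM. Every BMAd-Pnpla2+/+ CR sample stood above every other sample of the study, and the 2 groups of BMAd-Pnpla2-/- mice did not overlap each other either. The loxP sites flank exons 2 to 7 as the study numbers them, and the gene has further exons, so a shortened transcript from a recombined allele would still be counted. Pnpla2 in the cells of the plug without Cre is counted as well, and fewer adipocytes and less RNA per adipocyte cannot be told apart in bulk RNA.

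**Figure D1:**
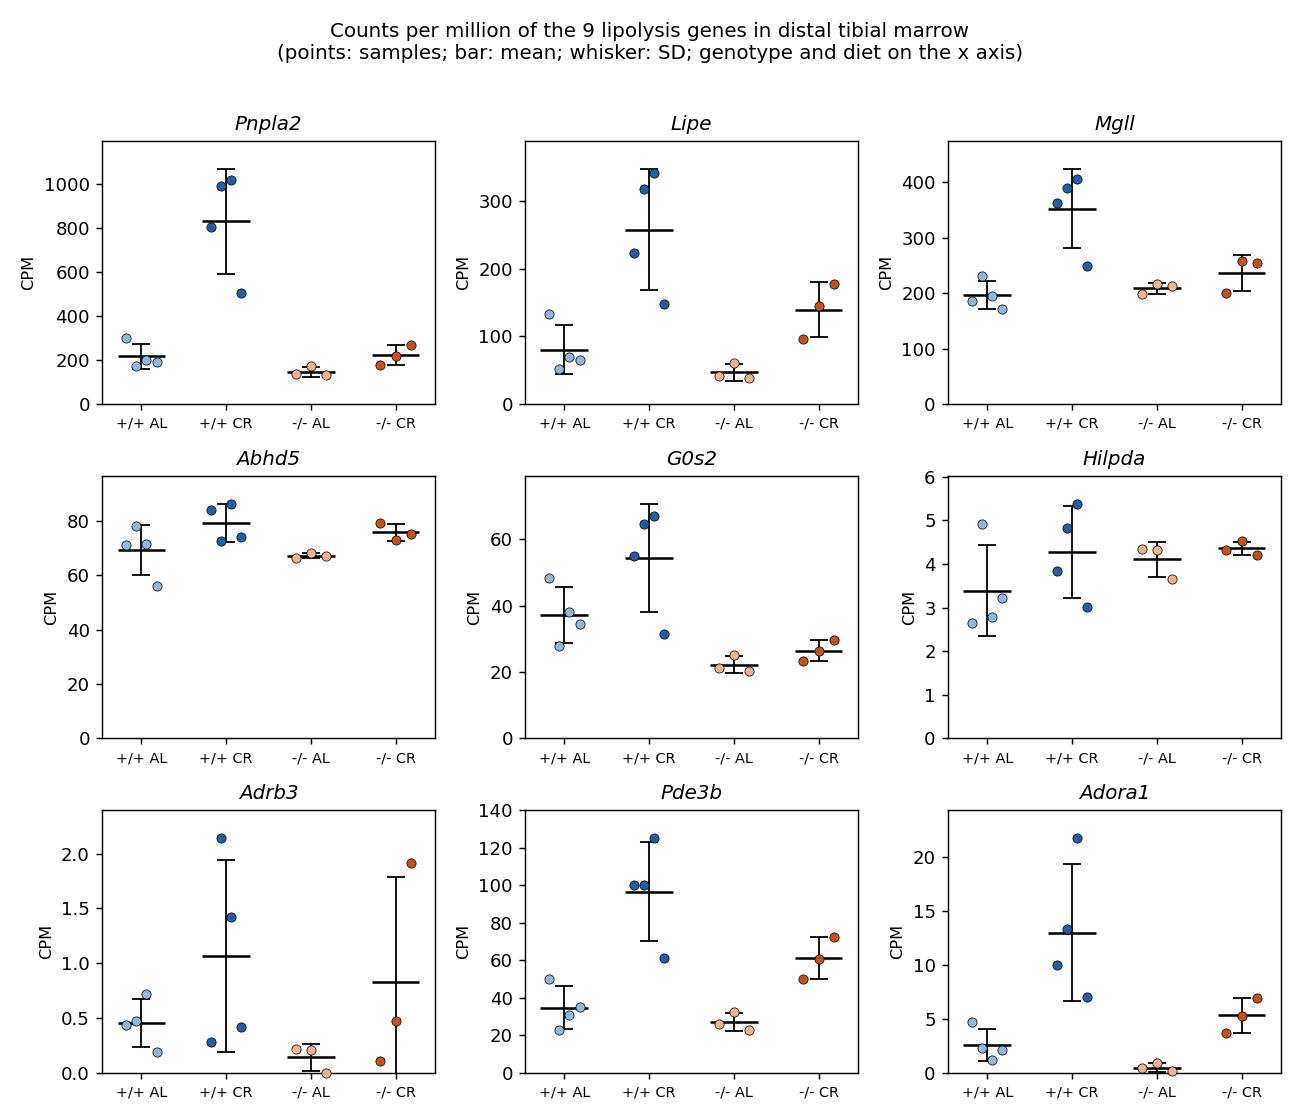
CPM (y axis, linear from 0) of the 9 genes in each of the 14 samples, by genotype and diet (x axis); points are samples, bars means and whiskers SD. The 4 BMAd-Pnpla2+/+ CR samples of Pnpla2 lie between 502 and 1015 CPM, above all others, while Abhd5 and Hilpda differ little between the groups.

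Per kilobase of exon, which allows genes to be compared, Pnpla2 was the most abundant of the 9 in all 4 groups. In BMAd-Pnpla2+/+ AL marrow its level was 71.4 ± 19.1 CPM per kilobase (SD, n = 4), followed by G0s2 at 42.7 ± 9.84 and Mgll at 38.6 ± 4.93, whose samples overlapped. Lipe at 13.6 ± 6.21 and Abhd5 at 11.6 ± 1.56 came next and overlapped each other, and so did Pde3b at 3.81 ± 1.26 and Hilpda at 3.07 ± 0.942 CPM per kilobase. The receptors were scarce, with Adora1 at 0.446 ± 0.260 and Adrb3 at 0.135 ± 0.0644 CPM per kilobase. Under CR in the same genotype Pnpla2 reached 274 ± 78.5 CPM per kilobase, Mgll 69.3 ± 14.02, G0s2 62.6 ± 18.7 and Lipe 43.8 ± 15.2, the last 3 with overlapping samples. The levels of Lipe, Adora1, Abhd5, Adrb3 and Mgll per kilobase are low estimates because reads in bases shared with the opposite strand are left out, and over the 11 stranded libraries together the reverse-strand counts were 152%, 142%, 119%, 110% and 105.5% of the counts used.

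The first comparison asks how CR changed these genes in marrow with an intact Pnpla2. All 3 lipases rose in BMAd-Pnpla2+/+ mice. Pnpla2 was 3.84-fold higher (log2 fold change 1.94 ± 0.23 (SE), adjusted p = 5.95e-04 by edgeR's quasi-likelihood test, 4 samples against 4). Lipe was at 134, 52.3, 69.6 and 65.3 CPM under AL and at 224, 319, 342 and 148 CPM under CR. Its groups did not overlap, with a log2 fold change of 1.68 ± 0.33 (adjusted p = 0.00498). Mgll was at 186, 231, 195 and 172 CPM under AL and at 363, 390, 406 and 249 CPM under CR, again without overlap, and rose by 0.84 ± 0.15 on the log2 scale (adjusted p = 0.00292).

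The partners that act on ATGL directly did not pass the test. Abhd5 stood at 56.2 to 78.1 CPM under AL and 72.6 to 86.3 CPM under CR, a log2 fold change of 0.20 ± 0.10 (adjusted p = 0.146). G0s2 was at 48.4, 27.9, 38.04 and 34.5 CPM under AL and at 55.0, 64.6, 67.0 and 31.3 CPM under CR. CR replicates 1 to 3 lay above all AL samples and CR replicate 4 lay among them (log2 fold change 0.55 ± 0.21, adjusted p = 0.0706). Without that sample G0s2 passed at 0.74 (adjusted p = 0.00449), and without replicate 1 of AL at 0.70 (adjusted p = 0.0364). Genes called in all were 6029 and 4187 in these fits, against 4602 with all samples. Hilpda, known best as a target of hypoxia, was at 2.66 to 4.91 CPM under AL and 3.01 to 5.38 CPM under CR (log2 fold change 0.33 ± 0.22, adjusted p = 0.272).

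Both brakes on cyclic AMP rose. Pde3b was at 50.1, 22.8, 30.7 and 35.3 CPM under AL and at 100, 99.9, 125 and 61.1 CPM under CR, a log2 fold change of 1.47 ± 0.25 with no overlap (adjusted p = 0.00270). Adora1 went from 4.73, 2.27, 1.24 and 2.09 CPM to 9.95, 13.3, 21.75 and 7.02 CPM, the highest fitted change of the 9 genes (log2 fold change 2.33 ± 0.45, adjusted p = 0.00507). Adrb3 was counted with 4 to 14 reads per AL sample and 6 to 47 per CR sample, and its groups overlapped (log2 fold change 1.24 ± 0.79, adjusted p = 0.253).

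In all, 5 of the 9 genes rose and none fell in this comparison, against 15.1% of all genes tested that rose and 10.9% that fell. The same 5 genes had groups that did not overlap, as did 12.4% of all genes in this direction. The median log2 fold change of the 9 was 1.24, and that of all genes was 0.00. Adipocyte markers moved with them: all 8 rose, with a median log2 fold change of 2.07, and their summed level went from 685 to 1785 CPM per AL sample to 1878 to 4765 CPM per CR sample.

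**Figure D2:**
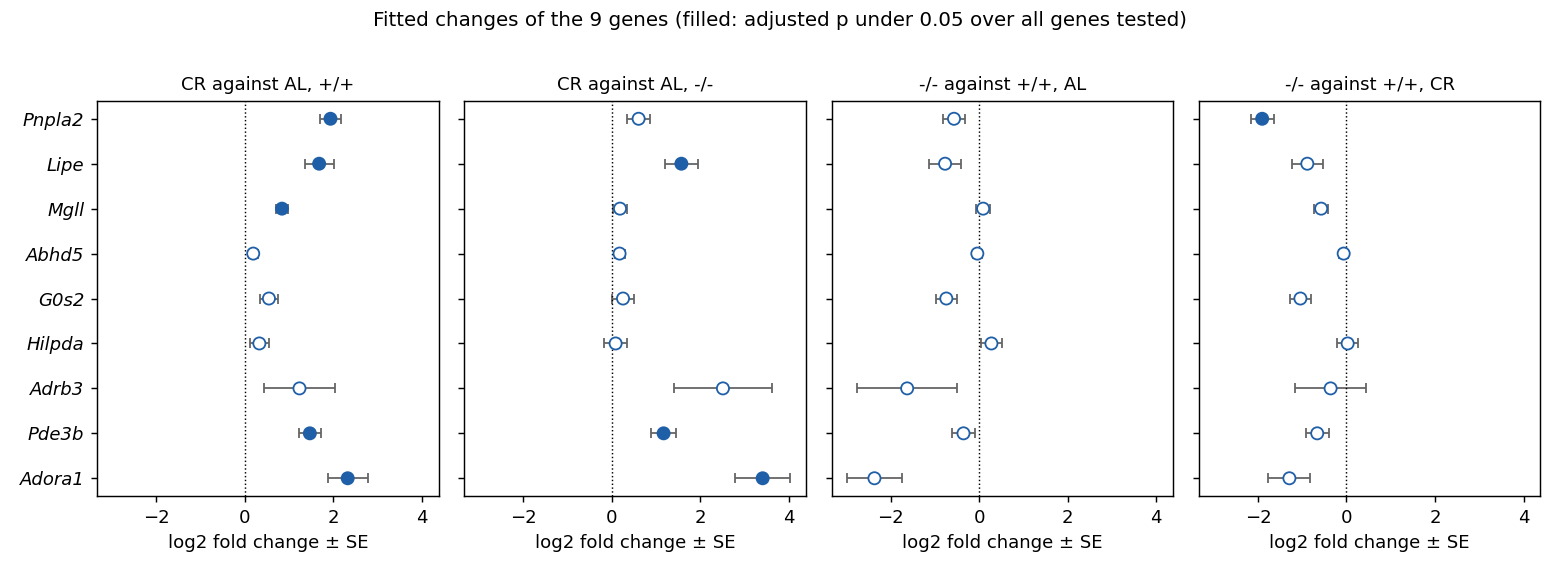
Log2 fold change (x axis) with its SE for each of the 9 genes (y axis) in the 4 comparisons of 2 groups; filled points passed an adjusted p of 0.05 over all genes tested. The filled points are 5 for CR in BMAd-Pnpla2+/+ mice, 3 for CR in BMAd-Pnpla2-/- mice, none for genotype under AL and Pnpla2 alone for genotype under CR.

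The second comparison asks the same of BMAd-Pnpla2-/- marrow. Lipe went from 40.8, 61.4 and 39.0 CPM under AL to 96.9, 145 and 177 CPM under CR (log2 fold change 1.57 ± 0.38, adjusted p = 0.0221, 3 samples against 3). Pde3b went from 26.1, 32.5 and 23.0 CPM to 49.9, 60.9 and 72.6 CPM (1.17 ± 0.28, adjusted p = 0.0226). Adora1 went from 0.435, 0.895 and 0.159 CPM to 3.69, 5.31 and 6.96 CPM (3.41 ± 0.63, adjusted p = 0.00964). None of these groups overlapped. The AL samples held only 3 to 17 reads of Adora1, so the size of its change is uncertain.

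Pnpla2 itself was higher under CR in all 3 BMAd-Pnpla2-/- samples than in any AL sample of that genotype, yet missed the threshold (log2 fold change 0.60 ± 0.26, adjusted p = 0.143). Mgll was at 198 to 216 CPM under AL and 200 to 257 CPM under CR (0.18 ± 0.17, adjusted p = 0.502), and Abhd5 was at 66.2 to 68.2 and 73.0 to 79.3 CPM (0.17 ± 0.11, adjusted p = 0.328). G0s2 was at 20.5 to 25.1 CPM under AL and 23.4 to 29.7 CPM under CR (0.25 ± 0.25, adjusted p = 0.541), and Hilpda was at 3.65 to 4.35 and 4.22 to 4.52 CPM (0.08 ± 0.26, adjusted p = 0.861). Adrb3 was counted with 0 to 4 reads under AL and with 2, 9 and 39 under CR (adjusted p = 0.152). The sample without an Adrb3 read allows a level of up to 0.158 CPM, taking 3 reads as the limit.

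In this comparison 3 of the 9 genes rose and none fell with CR, against 6.04% and 5.57% of all genes. There were 5 with groups that did not overlap, Lipe, Pde3b, Adora1, Pnpla2 and Abhd5, as had 20.5% of all genes in this direction. The median log2 fold change of the 9 was 0.60 and that of all genes 0.05. The 8 adipocyte markers rose here too, with a median log2 fold change of 2.22, from 280 to 687 CPM summed per AL sample to 1207 to 1939 CPM per CR sample. The calls of Lipe and Pde3b were not firm: the fits without BMAd-Pnpla2-/- AL replicate 1 or 3, or without CR replicate 2 or 3, left Adora1 alone past the threshold, with an adjusted p of 0.0584 to 0.0972 for Lipe and Pde3b. Calls fell among all genes too in these fits, to 444, 555, 827 and 243, against 2052 with all samples.

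The third comparison sets genotype against genotype in mice fed AL. No gene of the 17671 passed the adjusted threshold in either direction (0% higher, 0% lower), and 700 had an unadjusted p under 0.05 in edgeR's test. DESeq2 called 17 genes, Adora1 among them (log2 fold change -2.37, adjusted p = 0.0243). Of the 9 genes, 4 were lower at an unadjusted p under 0.05, against 2.55% of all genes. These were Adora1 (log2 fold change -2.37 ± 0.61, adjusted p = 0.833) and G0s2 (-0.74 ± 0.24), Pnpla2 (-0.57 ± 0.25) and Lipe (-0.77 ± 0.35), each of the last 3 with an adjusted p of 0.9996. Adora1, G0s2 and Pnpla2 were lower in every BMAd-Pnpla2-/- sample than in any BMAd-Pnpla2+/+ sample, as were 3.14% of all genes. Mgll (0.09 ± 0.16), Abhd5 (-0.04 ± 0.10), Hilpda (0.28 ± 0.24), Pde3b (-0.35 ± 0.27) and Adrb3 (-1.63 ± 1.123) were not among them. The 8 adipocyte markers were lower too, none past the threshold, with a median log2 fold change of -1.41.

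Under CR the genotypes differed in Pnpla2, which was 502 to 1015 CPM in BMAd-Pnpla2+/+ and 177 to 267 CPM in BMAd-Pnpla2-/- marrow. The fold was 0.267 (log2 fold change -1.90 ± 0.26, adjusted p = 0.0386, 4 samples against 3), and the groups did not overlap. Pnpla2 was the single member of the 9 to pass and the single gene of all 17671 to fall, with 1 other gene that rose (0.00566% in each direction). The call depended on how the spread was estimated. It was lost when only the compared groups were fitted (adjusted p = 0.209). It was also lost, with an adjusted p of 0.0574 to 0.220, in 9 of the 14 fits that left out 1 sample, in which the log2 fold change was -2.06 to -1.77. The call held without BMAd-Pnpla2+/+ AL replicate 1 or 2, BMAd-Pnpla2+/+ CR replicate 3 or 4, or BMAd-Pnpla2-/- AL replicate 2.

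G0s2 and Adora1 also stood lower in every BMAd-Pnpla2-/- CR sample than in any BMAd-Pnpla2+/+ CR sample, as did 8.06% of all genes. G0s2 was at 31.3 to 67.0 CPM against 23.4 to 29.7 CPM (log2 fold change -1.04 ± 0.24, adjusted p = 0.0643). Adora1 was at 7.02 to 21.75 CPM against 3.69 to 6.96 CPM (-1.29 ± 0.48, adjusted p = 0.141). Mgll (-0.57 ± 0.16, adjusted p = 0.0820), Lipe (-0.88 ± 0.35, adjusted p = 0.162) and Pde3b (-0.66 ± 0.26, adjusted p = 0.163) had overlapping groups. With Pnpla2 these make 6 genes lower at an unadjusted p under 0.05, against 11.4% of all genes. Abhd5 (-0.06 ± 0.10), Hilpda (0.03 ± 0.24) and Adrb3 (-0.36 ± 0.81) did not.

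One sample weighed on this comparison. BMAd-Pnpla2+/+ CR replicate 4 was the lowest of its group in 7 of the 9 genes and in adipocyte markers (1878 CPM summed, against 3623 to 4765 CPM in the other 3). Without it Pnpla2, G0s2, Mgll and Pde3b passed the test between genotypes under CR, at log2 fold changes of -2.08, -1.23, -0.71 and -0.83, and the number of genes called went from 2 to 2112. DESeq2, with all samples, called Pnpla2, G0s2, Mgll and Adora1, and 1558 genes in all. Adipocyte markers were again lower in BMAd-Pnpla2-/- marrow, none past the threshold, with a median log2 fold change of -1.21 over the 8.

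The interaction asks whether CR changed a gene differently in the 2 genotypes. None of the 9 genes passed, nor did any other gene (0% in each direction, 1836 genes at an unadjusted p under 0.05 in edgeR's test). The log2 fold change of Pnpla2 was lower in BMAd-Pnpla2-/- than in BMAd-Pnpla2+/+ marrow by a difference of -1.34 ± 0.35 (adjusted p = 0.341), and DESeq2 called it with a difference of -1.37 (adjusted p = 0.0478), 1 of 42 genes. Mgll had the next lowest unadjusted p (difference -0.66 ± 0.22, adjusted p = 0.346). The differences of Lipe (-0.11 ± 0.49), Pde3b (-0.31 ± 0.37) and G0s2 (-0.30 ± 0.33) were smaller than their SE, and that of Adora1 (1.08 ± 0.77) was larger and positive.

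Because the median log2 fold change of the adipocyte markers had the sign of that of the 9 genes in all 4 comparisons (-0.57 for the 9 genes between genotypes under AL and -0.66 under CR), each gene was set beside the mean log2 CPM of the 8 markers. Over the 14 samples Pearson's r with that mean was 0.99 for Lipe, 0.97 for Adora1 and Pde3b, and 0.90 for Pnpla2. It was 0.79 for Mgll, 0.78 for G0s2, 0.69 for Adrb3, 0.62 for Abhd5 and 0.24 for Hilpda. After each group's mean was taken off, r was 0.95 for Lipe and Pnpla2, 0.89 for Pde3b, 0.88 for G0s2 and 0.85 for Adora1. It was 0.52 for Mgll, 0.50 for Adrb3, 0.19 for Hilpda and 0.12 for Abhd5. These are descriptions of samples that share libraries and scaling factors. Within groups, the 5 genes with the highest values varied closely with the markers from sample to sample, and Abhd5 and Hilpda varied little with them. With the mean of 8 neutrophil markers r was negative, at -0.80 for Pnpla2, -0.86 for Lipe and -0.36 for Abhd5.

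**Figure D3:**
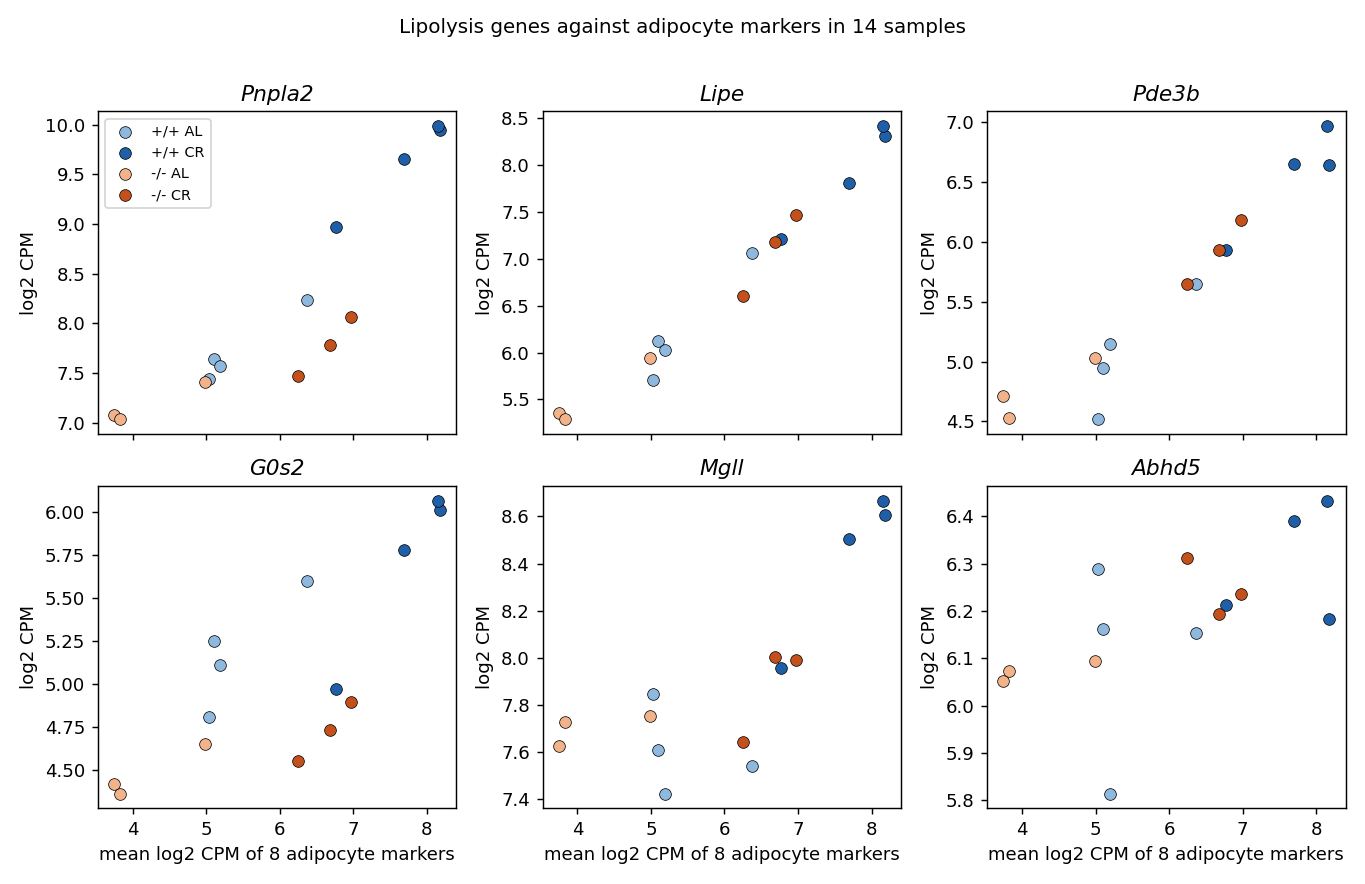
Log2 CPM of 6 genes (y axes) against the mean log2 CPM of 8 adipocyte markers (x axis) in the 14 samples, colored by group. Lipe and Pde3b lie along a single band across all groups. The 3 BMAd-Pnpla2-/- CR samples of Pnpla2 lie below BMAd-Pnpla2+/+ AL replicate 1 and CR replicate 4, whose marker levels are similar. Those of G0s2 do so by little for the second, at up to 29.7 CPM against 48.4 and 31.3 CPM. Relative to the markers, the G0s2 samples of the CR groups overlap.

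The BMAd-Pnpla2-/- CR samples spanned marker means of 6.25 to 6.97 on the log2 scale, a range that also held BMAd-Pnpla2+/+ AL replicate 1 at 6.37 and BMAd-Pnpla2+/+ CR replicate 4 at 6.77. Pnpla2 was at 301 and 502 CPM in these BMAd-Pnpla2+/+ samples and at 177 to 267 CPM in the BMAd-Pnpla2-/- CR samples. G0s2 was at 48.4 and 31.3 CPM against 23.4 to 29.7 CPM. Lipe, at 134 and 148 CPM, lay within the 96.9 to 177 CPM of the BMAd-Pnpla2-/- CR samples, and Pde3b, at 50.1 and 61.1 CPM, within their 49.9 to 72.6 CPM. These values were picked after they were seen and were not tested.

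For Pnpla2 the difference from the marker mean was tested by exact two-sided permutation over samples. It was 2.30 ± 0.30 (SD, n = 4) in BMAd-Pnpla2+/+ AL, 1.94 ± 0.19 (n = 4) in BMAd-Pnpla2+/+ CR, 2.99 ± 0.49 (n = 3) in BMAd-Pnpla2-/- AL and 1.14 ± 0.08 (n = 3) in BMAd-Pnpla2-/- CR marrow, all in log2 units. Under CR the value of BMAd-Pnpla2-/- marrow was 0.81 lower than that of BMAd-Pnpla2+/+ marrow with no overlap (exact permutation p = 0.0286, the smallest that 4 against 3 samples allow). With Adipoq alone as the marker the difference was -1.23, with an exact permutation p of 0.114. Under AL it was 0.69 higher (exact permutation p = 0.0571).

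Between the diets, the value of Pnpla2 relative to the markers differed by -0.35 in BMAd-Pnpla2+/+ mice, which did not pass (exact permutation p = 0.0857, of a smallest possible 0.0286). In BMAd-Pnpla2-/- mice the difference was -1.85, with no overlap of the groups and an exact permutation p of 0.1, the smallest that 3 against 3 samples can give. The difference between the genotypes in this change was -1.5 (exact permutation p = 0.0986, of a smallest possible 0.00143, with diet labels permuted within genotype). Such permutations stand for no effect of diet in either genotype. This p therefore cannot decide whether the effect of diet was the same in both genotypes. The BMAd-Pnpla2-/- AL samples had marker means of 3.75 to 4.99, the lowest of the 4 groups, and the highest mean of Pnpla2 relative to them. Abhd5 and Mgll ranged from 1.89 and 3.52 in that group to -1.39 and 0.74 in BMAd-Pnpla2+/+ CR marrow, where the markers were highest.

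**Figure D4:**
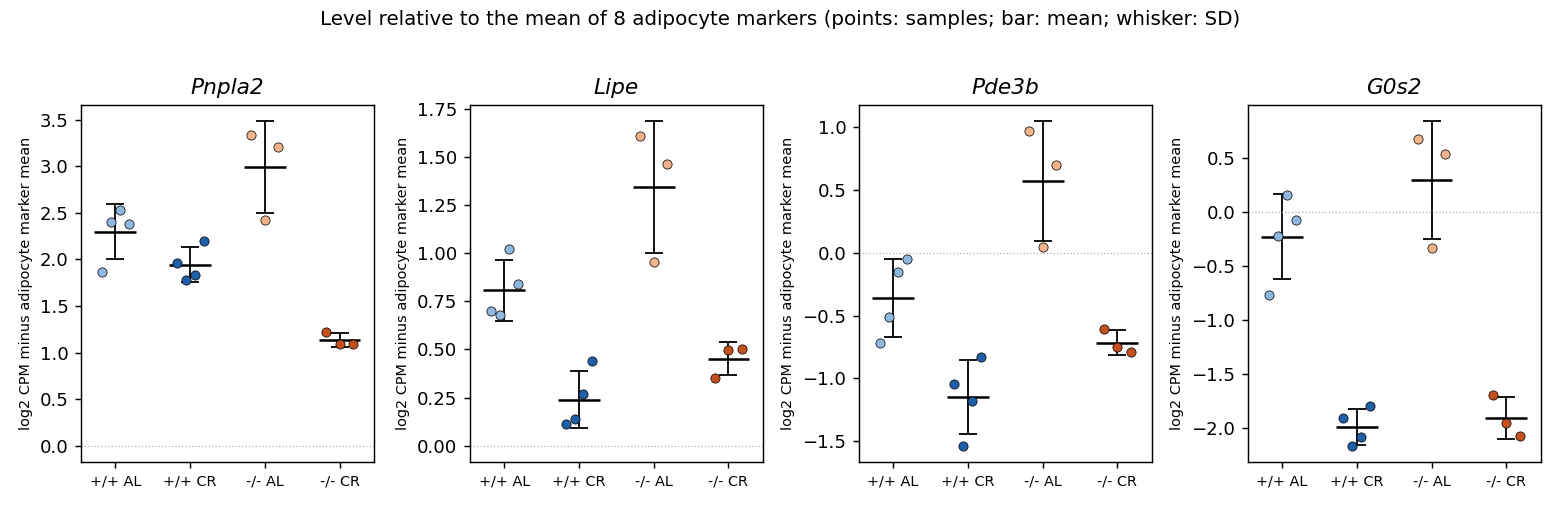
Log2 CPM minus the mean log2 CPM of 8 adipocyte markers (y axes) for 4 genes by genotype and diet (x axes); points are samples, bars means and whiskers SD. Pnpla2 has its lowest values, 1.09 to 1.22, in the 3 BMAd-Pnpla2-/- CR samples, while the G0s2 samples of the CR groups overlap, with means of -1.99 and -1.91.

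Relative to the markers, Lipe was at 0.24 ± 0.15 in BMAd-Pnpla2+/+ CR and 0.45 ± 0.09 in BMAd-Pnpla2-/- CR marrow, and Pde3b at -1.15 ± 0.29 and -0.71 ± 0.10. G0s2 was at -1.99 ± 0.17 and -1.91 ± 0.19, with overlapping samples. Pnpla2 was thus the one of these 4 genes that stood lower in BMAd-Pnpla2-/- CR marrow on this scale, and the other three were not tested.

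Among the members, Pnpla2 and Lipe had a Pearson's r of 0.91 over the 14 samples and 0.98 after group means were removed. Pnpla2 and G0s2, the lipase and its inhibitor, had 0.89 and 0.96, and Lipe and Pde3b 0.98 and 0.94. Pnpla2 and its coactivator Abhd5 had 0.56 and 0.14, and Pnpla2 and the inhibitor Hilpda 0.19 and 0.21. The genes outside the 9 whose log2 CPM followed Pnpla2 most closely over the 14 samples were Gstz1 (r = 0.97), Sh3glb2 (0.97) and Sik2 (0.96). For Lipe they were Tshr, Itga7 and Adcyap1r1 (0.99 each), and for G0s2 Bcar3 (0.97), Srebf1 (0.95) and Fam213b (0.94).

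Around the cascade, 78 further genes were taken from 9 lists of its hormonal, signaling and droplet components, of which 74 were tested. With CR in BMAd-Pnpla2+/+ mice 28 rose and 2 fell, while BMAd-Pnpla2-/- mice had 18 that rose and 3 that fell. Beside these counts, and those of the single lists below, stand the shares of all genes given above. In BMAd-Pnpla2+/+ mice 15.1% of all genes rose and 10.9% fell, and in the other genotype 6.04% and 5.57%. No gene of these lists passed between genotypes under AL or CR, or in the interaction, where at most 0.00566% of all genes passed in each direction.

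Of the receptors that raise cyclic AMP, 4 of 7 tested rose with CR in BMAd-Pnpla2+/+ mice, compared with 3 in BMAd-Pnpla2-/- mice. Mc2r, the corticotropin receptor, went from a mean of 0.382 to 5.72 CPM in BMAd-Pnpla2+/+ (log2 fold change 3.87 ± 0.42, adjusted p = 2.98e-04) and from 0.356 to 2.86 CPM in BMAd-Pnpla2-/- marrow (2.99 ± 0.50, adjusted p = 0.00781). Tshr, the thyrotropin receptor, rose by 2.02 ± 0.35 (adjusted p = 0.00302) and 1.78 ± 0.40 (adjusted p = 0.0183). The glucagon receptor gene Gcgr had at most 1 read per BMAd-Pnpla2+/+ AL sample and none in BMAd-Pnpla2-/- AL, and was at 0.317 to 1.55 and 0.210 to 0.422 CPM under CR. The median log2 fold change of the list was 1.33 in BMAd-Pnpla2+/+ mice, beside 0.50 in BMAd-Pnpla2-/- mice.

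Of 6 receptors that lower cyclic AMP, 2 rose and 1 fell in BMAd-Pnpla2+/+ mice, with a list median of -0.21. The neuropeptide Y receptor Npy1r rose from 0.175 to 0.649 CPM (log2 fold change 1.86 ± 0.56, adjusted p = 0.0290) and Hcar1, the lactate receptor, by 1.84 ± 0.48 (adjusted p = 0.0164). Hcar2, the niacin receptor that myeloid cells also carry, fell from 9.96 to 6.43 CPM (-0.63 ± 0.16, adjusted p = 0.0161) and in BMAd-Pnpla2-/- mice from 8.83 to 4.60 CPM (-0.94 ± 0.19, adjusted p = 0.0127), the one gene of this list called there. Of 8 neutrophil markers, 5 fell in BMAd-Pnpla2+/+ mice and none passed in BMAd-Pnpla2-/- mice, with median log2 fold changes of -0.90 and -0.41, and their part in the change of Hcar2 was not tested.

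In the signaling chain between receptor and lipase, of 12 G proteins and adenylyl cyclases tested, 3 rose and none fell in BMAd-Pnpla2+/+ mice, and 1 rose and 1 fell in BMAd-Pnpla2-/- mice. Gnai1, an inhibitory G protein subunit, rose in both (log2 fold changes 1.503 ± 0.34 and 1.73 ± 0.40, adjusted p = 0.00994 and 0.0201). Adcy1 had the largest change in BMAd-Pnpla2+/+ mice (1.64 ± 0.46, adjusted p = 0.0208, from a mean of 0.327 CPM), and Gnai3 the lowest (-0.19 ± 0.10, adjusted p = 0.161). Gnai2 fell in BMAd-Pnpla2-/- mice (-0.59 ± 0.13, adjusted p = 0.0172) and was at -0.15 ± 0.12 in BMAd-Pnpla2+/+ mice, with no call in the interaction. Of the 6 subunits of protein kinase A, Prkar2a rose in both genotypes (0.37 ± 0.08 and 0.34 ± 0.09, adjusted p = 0.00576 and 0.0269), and the rest did not pass. Prkar1b had the lowest value (-0.29 ± 0.26, adjusted p = 0.418).

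Among 9 other phosphodiesterases of cyclic AMP, 3 rose and 1 fell in BMAd-Pnpla2+/+ mice and none passed in BMAd-Pnpla2-/- mice. Pde7b had the highest change (log2 fold change 0.69 ± 0.18, adjusted p = 0.0172) and Pde4c the lowest (-1.26 ± 0.33, adjusted p = 0.0155). None of the 9 reached the 1.47 of Pde3b. In the insulin arm 4 of 10 genes rose in BMAd-Pnpla2+/+ and 3 of 10 in BMAd-Pnpla2-/- mice. Irs1, the receptor substrate, rose by 1.80 ± 0.31 (adjusted p = 0.00311) and 1.19 ± 0.36 (adjusted p = 0.0473), the receptor gene Insr by 0.50 ± 0.13 and 0.71 ± 0.15 (adjusted p = 0.0154 and 0.0141), and Pik3r1 by 0.54 ± 0.13 and 0.59 ± 0.15 (adjusted p = 0.0103 and 0.0231). Pik3cb was lowest in BMAd-Pnpla2+/+ mice (-0.27 ± 0.14, adjusted p = 0.169).

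The natriuretic peptide arm, a route to lipolysis through cyclic GMP, had 2 of 3 tested genes rise in BMAd-Pnpla2+/+ and 1 of 3 in BMAd-Pnpla2-/- mice. Npr3, the clearance receptor, rose by 1.82 ± 0.35 and 2.31 ± 0.41 on the log2 scale (adjusted p = 0.00499 and 0.00951), and Prkg1 had the lowest change (0.15 ± 0.21, adjusted p = 0.622).

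**Figure D5:**
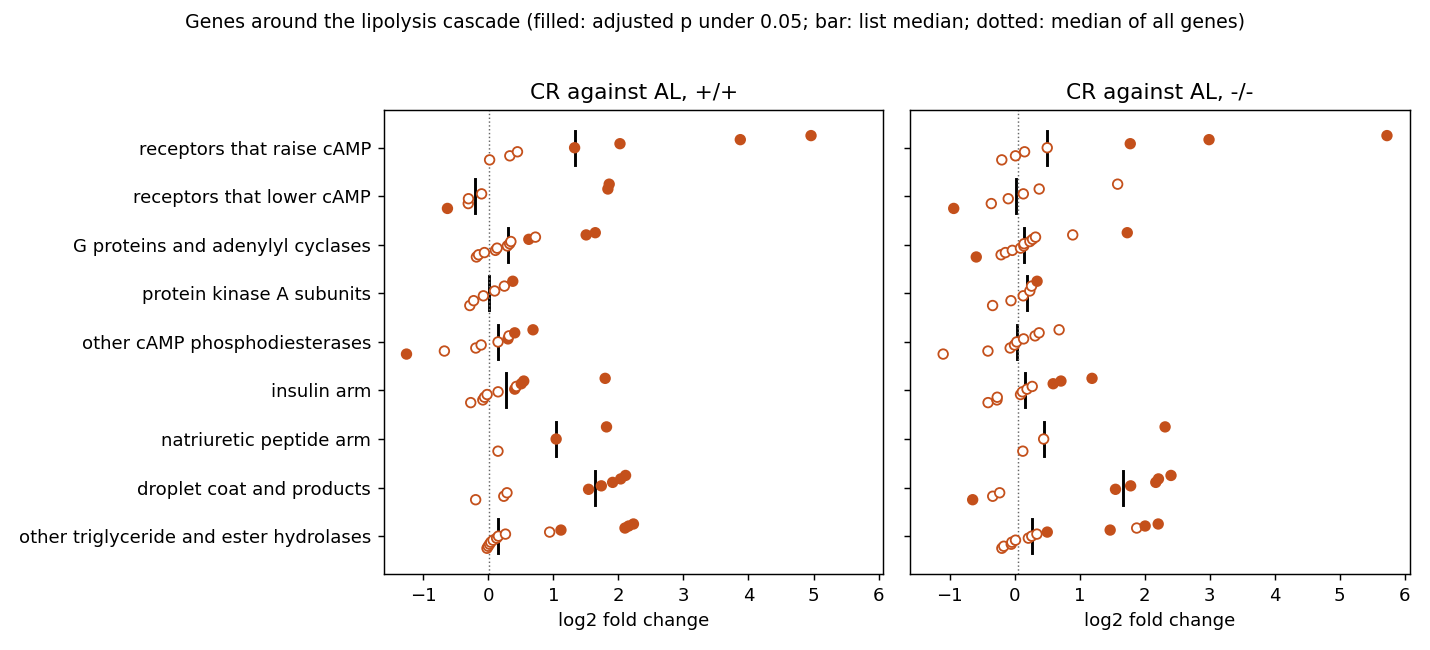
Log2 fold change with CR (x axes) of each tested gene in 9 lists around the cascade (y axis) in BMAd-Pnpla2+/+ and BMAd-Pnpla2-/- mice; filled points passed an adjusted p of 0.05, bars are list medians and the dotted line is the median of all genes. The droplet list has medians of 1.64 and 1.67 and the receptors that raise cyclic AMP medians of 1.33 and 0.50, and the kinase and phosphodiesterase lists have medians under 0.2.

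The list of lipid droplet proteins and carriers of the products shares 4 genes with the adipocyte markers and is a list of 8. With CR, 5 of the 8 rose in each genotype, and 1 fell in BMAd-Pnpla2-/- mice. Plin1, the perilipin that holds Abhd5 until protein kinase A releases it, rose by 2.11 ± 0.46 and 2.17 ± 0.53 on the log2 scale (adjusted p = 0.00784 and 0.0230), and Aqp7, the channel by which glycerol leaves the cell, by 1.91 ± 0.41 and 2.40 ± 0.51 (adjusted p = 0.00786 and 0.0143). Fabp4 rose by 2.03 ± 0.29 and 1.55 ± 0.33, Cidec by 1.74 ± 0.45 and 2.21 ± 0.54 and Plin4 by 1.54 ± 0.45 and 1.78 ± 0.53. Fabp5, a carrier found in many cell types, was lowest in BMAd-Pnpla2+/+ mice (-0.20 ± 0.15, adjusted p = 0.343) and fell in BMAd-Pnpla2-/- mice (-0.65 ± 0.18, adjusted p = 0.0334).

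Of 13 other hydrolases of triglyceride and esters tested, 4 rose in each genotype and none fell. Pnpla3, the nearest relative of Pnpla2, rose from 3.37 to 15.9 CPM in BMAd-Pnpla2+/+ (log2 fold change 2.23 ± 0.51, adjusted p = 0.0101) and from 1.06 to 4.93 CPM in BMAd-Pnpla2-/- marrow (2.21 ± 0.66, adjusted p = 0.0467). The carboxylesterase Ces1d rose by 2.16 ± 0.34 and 2.01 ± 0.41 (adjusted p = 0.00219 and 0.0129), and Lpl, the lipase of the vessel wall, by 2.10 ± 0.32 and 1.47 ± 0.36 (adjusted p = 0.00179 and 0.0235). Ddhd2 passed in BMAd-Pnpla2-/- mice (0.50 ± 0.11, adjusted p = 0.0148) and had 0.26 ± 0.09 in BMAd-Pnpla2+/+ mice (adjusted p = 0.0536). Lipa, the acid lipase of lysosomes, had the lowest change in BMAd-Pnpla2+/+ mice (-0.02 ± 0.16, adjusted p = 0.929). No relative of ATGL or other hydrolase of this list was called higher in BMAd-Pnpla2-/- than in BMAd-Pnpla2+/+ marrow under either diet. Of all 17671 genes tested, 0% were called higher under AL and 0.00566% under CR, so the absence of calls is not particular to this list.

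Other cells of the plug changed with CR as well, and their part in these results was not tested. All 6 markers of pro-B and pre-B cells fell in both genotypes, and their summed level went from 85.4 to 242 CPM to 2.85 to 5.65 CPM in BMAd-Pnpla2+/+ samples. In BMAd-Pnpla2+/+ mice, endothelial markers rose in 4 of 5 genes, osteoblast markers in 3 of 6, stromal markers in 2 of 4 and macrophage markers in 2 of 7, and granulocyte precursor markers fell in 3 of 4. In BMAd-Pnpla2-/- mice, 1 osteoblast and 2 stromal markers rose, and none of the endothelial, macrophage or granulocyte precursor lists passed. Of all genes tested, 15.1% rose and 10.9% fell with CR in BMAd-Pnpla2+/+ mice, and 6.04% and 5.57% in BMAd-Pnpla2-/- mice. None of 7 erythroid markers passed with CR in either genotype. Cidea, the 1 of 3 brown adipocyte markers tested, rose in BMAd-Pnpla2+/+ mice and was at 2.51 CPM or less in every sample. Ucp1 and Elovl3 did not pass the filter on low counts, with at most 5 and 11 reads per sample. None of the 3 skeletal muscle markers tested passed, of 7 listed. These 3 summed to 83.8 CPM or less, with the highest sum in a BMAd-Pnpla2-/- CR sample, and the rest of the list is not in that sum. Between genotypes no marker of any of these 11 lists passed the test, where at most 0.00566% of all genes passed in each direction. Under CR all 7 erythroid and all 8 neutrophil markers were higher in BMAd-Pnpla2-/- marrow, with median log2 fold changes of 0.76 and 0.31. All 5 endothelial markers were lower there, with a median of -0.41.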

How the data were processed

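RNA-seq of 14 pooled marrow samples was analyzed. The authors aligned read pairs with STAR (version not given in the sources used here) to mm10 and deposited, per sample, raw counts of 55401 genes in 3 columns (unstranded, first strand, reverse strand), and a matrix of raw counts of 23441 genes that held reverse-strand counts for 11 samples and unstranded counts for 3. The unstranded deposited counts were used here. Reads not on 1 gene, 21.1% to 25.6% of the total, stayed out of library sizes and tests. Gene models came from GENCODE M21 (GRCm38), in which 54349 identifiers matched with version and 792 without it.

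Counts were scaled by TMM in edgeR 4.0.16 (R 4.3.3) and filtered by filterByExpr, and 1 robust quasi-likelihood model with a mean per group was fitted to all samples. Tests were two-sided, with Benjamini-Hochberg adjustment over 17671 genes within each comparison. The SE of a log2 fold change is its size over the square root of F. Genes passed at an adjusted p under 0.05. Log2 CPM used a prior count of 2, and each level per kilobase is the CPM over the merged exon length. The fit was tested on simulated data. Alternatives were RLE factors, total counts, no filter, DESeq2 1.42.0, the deposited matrix, reverse-strand counts, the compared groups alone, the replicate block, a further criterion of a log2 fold change over 1, and leaving out each sample. Limits from a count of 0 cover counting error only.

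The 9 genes and all lists were chosen with earlier results of these data known. Adora2a, whose receptor raises cyclic AMP, was moved from the list of lowering to that of raising receptors after its values were seen, which changed no count of calls. From each list, the genes with the highest and lowest log2 fold change with CR in BMAd-Pnpla2+/+ mice and those called in another comparison are named; Hcar1 was named beyond that rule, after its values were seen. 1 gene that the rule names is not reported here. For Pnpla2, Lipe and G0s2 the 3 genes outside the 9 with the highest Pearson's r are given.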

Additional observations from a re-analysis of the deposited data

How the results depend on the processing

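With CR in BMAd-Pnpla2+/+ mice, 5 of the 9 genes passed in every setting tried with all samples, except 4 with a further criterion of a log2 fold change over 1 (Mgll lost), and 5 to 6 with 1 sample left out. The count of all genes, 4602, became 2742 with only the compared groups fitted, 1639 with that criterion and 2228 to 6029 with 1 sample left out.

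With CR in BMAd-Pnpla2-/- mice, the 3 genes called became 1 without the low-count filter and 1 to 3 with 1 sample left out; the 2052 genes called in all became 3898 in the deposited matrix, 624 with that criterion and 243 to 2435 with 1 left out. In the matrix, where Lipe was counted by strand under AL and without strand under CR, 2 of the 9 genes were called and Lipe was lost (log2 fold change 0.90, adjusted p = 0.0974).

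Between genotypes under AL, DESeq2 called 1 of the 9 genes and 17 in all, against 0. Under CR, the 1 gene called of the 9 became 4 by DESeq2, 5 in the deposited matrix and 0 with only the compared groups fitted, with 0 to 4 when 1 sample was left out. The 2 genes called in all became 8 by total counts, 111 without the filter, 1558 by DESeq2, 2451 in the matrix, 0 with the compared groups alone, 1 with that criterion and 0 to 2112 with 1 left out. In the interaction, DESeq2 and the matrix each called 1 of the 9, Pnpla2, and 42 and 678 genes in all, against 0. The matrix held counts without strand in the BMAd-Pnpla2-/- CR samples alone. Between genotypes under CR and in the interaction, its calls therefore cannot be told apart from that way of counting. Total counts moved the median of all genes by under 0.1.

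Pnpla2 relative to the markers, between genotypes under CR, was -1.23 with Adipoq alone (exact permutation p = 0.114) and -0.86 to -0.72 with 1 sample left out, where 3 samples against 3 cannot go below an exact p of 0.1.

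Signs turned only in values that no setting called. Abhd5 became -0.0995 in the matrix (CR, BMAd-Pnpla2-/-) and 0.000470 by total counts (interaction). Hilpda between genotypes under CR became -0.000506 by RLE, -0.00773 without the filter, -0.00383 by DESeq2 and -0.0368 with the replicate block, which also turned Mgll between genotypes under AL to -0.0148. With 1 sample left out, values crossed 0 within these ranges: in the interaction, -0.0841 to 0.0666 for Abhd5, -0.479 to 0.0897 for Lipe and -0.247 to 1.85 for Adrb3. Between genotypes under CR they were -1.87 to 0.221 for Adrb3 and -0.106 to 0.159 for Hilpda, between genotypes under AL -0.130 to 0.0210 for Abhd5, and with CR in BMAd-Pnpla2-/- mice -0.0331 to 0.106 for Hilpda. The cause of these shifts was not tested.

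Replicate numbers did not pair the samples: of 19 same-numbered pairs, 6 had a correlation of deviations over 0.1, with a range of -0.37 to 0.29. The replicate block kept the number of the 9 genes called in each comparison, with 4253, 1831, 0, 2 and 0 genes called in all.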
